A study of Mus musculus with 2 samples.

Results

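The genes described here are 40 protein-coding genes of cytosolic heat shock protein folding and of the mitochondrial unfolded protein response, out of 21866 protein-coding genes on the chromosomes that hold peaks. They are a list of gene names, 26 with a cytosolic and 14 with a mitochondrial role. For each, peaks of the transcription factor CHOP were counted as promoter peaks where the summit, the highest point of the peak, was within 1 kb of a start site of the gene. A peak further out was counted as distal where it was within 50 kb and the gene had the nearest protein-coding start site. The peaks came from chromatin immunoprecipitation and sequencing of the liver of wild-type (WT) mice, 8 h after an intraperitoneal dose of 1 mg/kg body weight of tunicamycin, which blocks N-linked glycosylation. Material of 3 mice was pooled into 1 CHOP library, and 1 input library of WT liver with the same treatment was made. The sources used here give no strain, sex or age. With 1 pooled library and no untreated or CHOP-deficient animal, the list shows where peaks lay after tunicamycin and nothing on change or on variation between animals.

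Cells answer unfolded proteins separately in each compartment. In the cytosol, heat shock factors bind heat shock elements, arrays of inverted GAA units, and raise HSP70, HSP90, their J-domain and BAG co-chaperones and small heat shock proteins. In mitochondria, imported proteins are folded by HSP60 with HSP10 and by mitochondrial HSP70, and faulty ones are cut by proteases such as LONP1 and CLPP. CHOP, a C/EBP-family factor best known from stress of the endoplasmic reticulum, has been linked in cultured mammalian cells to the mitochondrial response through an element in the promoter that the HSP60 and HSP10 genes share. The list holds no measure of expression, so a peak here says nothing on the activity of a gene.

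The deposited list held 14157 peaks. The authors' fold enrichment of a peak, which sets the reads piled up at the summit against those of the local background, was between 2.31 and 158.2 with 6.75 as the median. The reads at each summit, solved from fold and −log10 p, had a median of 11. Fold values below carry a 95% exact Poisson interval on those reads, which covers counting error only. The sources used here do not state the depth of the libraries.

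A promoter peak was found at 26 of the 40 genes (65.0%, 95% Wilson interval 49.5 to 77.9%), against 27.9% of all protein-coding genes. The share was 17 of 26 (65.4%, 46.2 to 80.6%) for the cytosolic genes and 9 of 14 (64.3%, 38.8 to 83.7%) for the mitochondrial ones. Counting only peaks at or above the median fold of the list, 16 members had one, against 14.7% of all genes. Most members have CpG-rich promoters, with an observed/expected CpG ratio of 0.6 or more within 500 bp of the outermost start site, and over all genes CHOP promoter peaks were more frequent at such promoters (51.0%) than at those with a lower ratio (7.71%). Among the 35 CpG-rich members 23 had a promoter peak (65.7%), against 51.0% of all CpG-rich genes, so the distance to the background was smaller there. Of the 5 members with a lower ratio, Hspa4l, Hsp90aa1 and Spg7 had a promoter peak and Ahsa1 and Hspb8 had not, against 7.71% of all genes of that class. Those 3 peaks lay at another start site of the gene than the outermost one, with local ratios of 0.881, 0.981 and 0.937. With the highest ratio over all start sites, 26 of 38 CpG-rich members (68.4%) had a promoter peak, against 50.4% of genes.

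**Figure D1:**
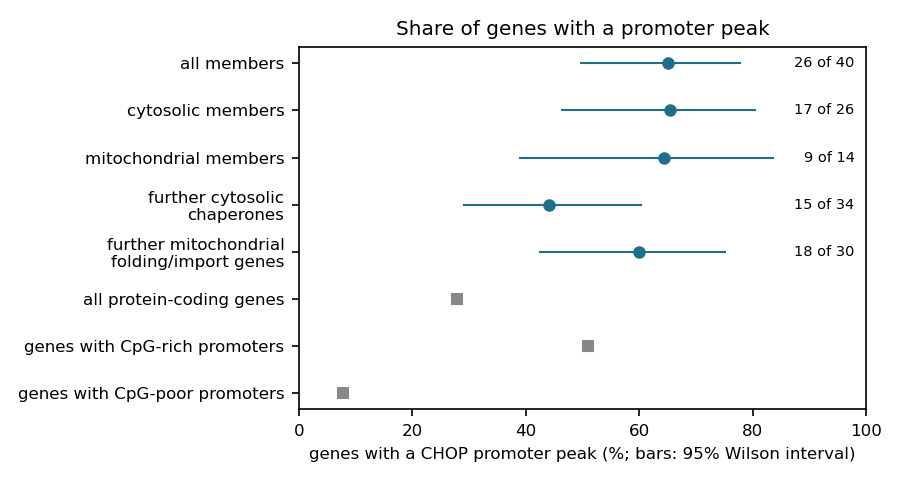
Percentage of genes with a CHOP summit within 1 kb of a start site, for the members, for further genes of the same pathways, and for all protein-coding genes and their classes of CpG ratio. Points are shares with 95% Wilson intervals and squares are the background. The members stand at 65.0% (49.5 to 77.9%), above the 27.9% of all genes, and their interval covers the 51.0% of CpG-rich genes.

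Where they had one, the members' promoter peaks were of ordinary strength. Their median fold was 7.44, ranging from 4.21 to 26.0, against a median of 6.86 over all 6100 genes with a promoter peak. Among the members 3 of 26 lay in the top 10% of promoter peaks and 7 in the top 25%. The median peak rested on 15.0 reads, and 8 rested on 10 or fewer. The strongest of all members were the mitochondrial chaperone genes Hspa9, Hspd1 and Hspe1. The strongest cytosolic ones were Hspa4l, Dnajb4 and Hspa4.

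**Figure D2:**
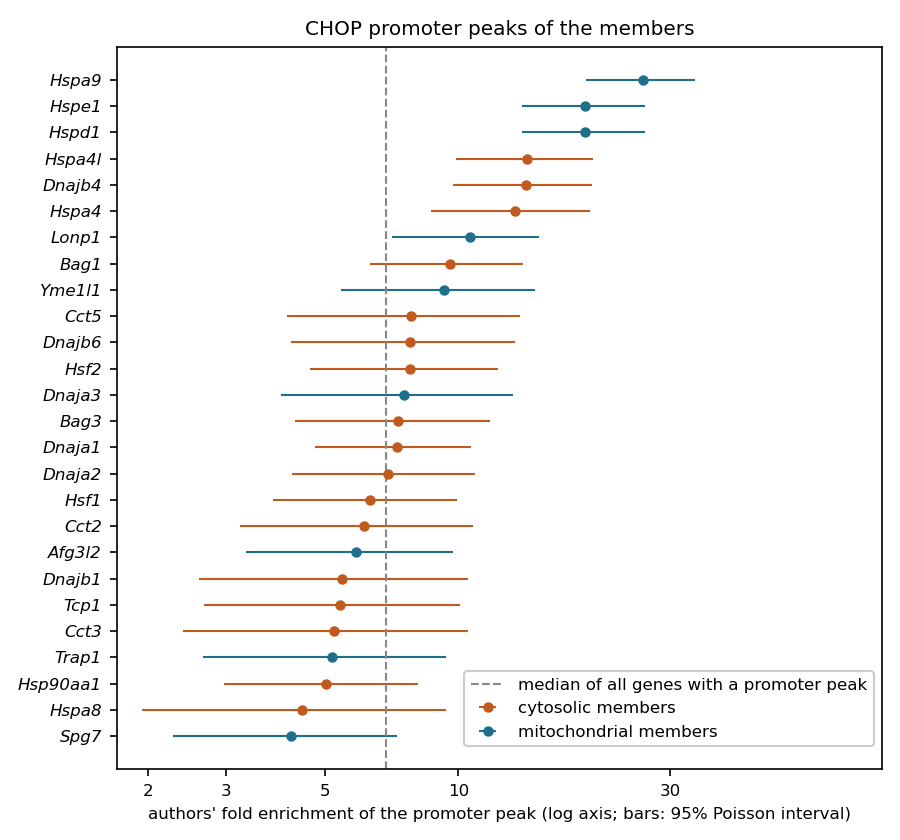
The authors' fold enrichment of the promoter peak (log axis) of the 26 members that have one, with 95% exact Poisson intervals. Mitochondrial members are blue, cytosolic ones orange, and the dashed line is the median of all genes with a promoter peak, 6.86. Hspa9, Hspe1 and Hspd1 stand at the top, and the intervals of most others cover the dashed line.

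Among mitochondrial chaperones 5 of 6 genes had a promoter peak (83.3%), with 1 peak counted for both Hspd1 and Hspe1. The share was 27.9% over all protein-coding genes and 51.0% over CpG-rich ones, the class of all 6. Hspa9 encodes mitochondrial HSP70 (mortalin), which pulls proteins through the inner membrane and folds them. Its peak had a fold of 26.0 (19.4 to 34.2) on 49 reads, higher than 97.3% of genes with a promoter peak, with the summit 295 bp upstream of the only start site, in intergenic sequence (mm10, chromosome 18, 34954073 to 34955036). A weaker distal peak, 7.50-fold (3.84 to 13.6) on 9 reads, lay 4206 bp upstream of the gene. The interval of the promoter peak overlapped those of Hspd1 and of the leading cytosolic genes and was clear of that of Lonp1, the next mitochondrial gene at 10.6 (7.09 to 15.2).

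Hspd1 and Hspe1 encode HSP60 and HSP10, the barrel and lid of the mitochondrial chaperonin. They are transcribed in opposite directions from 1 promoter on chromosome 1 of mm10, and 1 CHOP peak of 1074 bp (55087536 to 55088609) covered it. Its fold was 19.3 (13.9 to 26.3) on 39 reads, above 94.7% of genes with a promoter peak. The summit lay 160 bp upstream of the start site of Hspe1, 52 bp inside the nearer start site of Hspd1 and 271 bp inside its outer one, where the annotation has the 5′ UTR of Hspd1. The 2 genes therefore share a single measurement, and position alone cannot assign it to either.

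A TGCAAT, the core of the sequence that CHOP and C/EBP dimers bind, was centred about 20 bp from that summit. A heat shock element of 4 alternating units was 95 bp from the summit, on its other side and between the nearer start site of Hspd1 and that of Hspe1. No other promoter peak of the members held this core within 50 bp of its summit. Over all promoter peaks 3.47% held the core in that window, against which 1 of 25 does not stand out. The 2 stretches are printed because they show a C/EBP-type core and a heat shock element on either side of the summit of 1 CHOP peak. Both are on the plus strand of mm10, the direction of Hspe1, with the element in capitals, and both fall in annotated 5′ UTR of a transcript of Hspd1.
Core at chr1:55087937-55087966: acgccggggcccTGCAATctgcatgcggcg
Heat shock element at chr1:55088053-55088082: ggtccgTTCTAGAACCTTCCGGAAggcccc

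**Figure D3:**
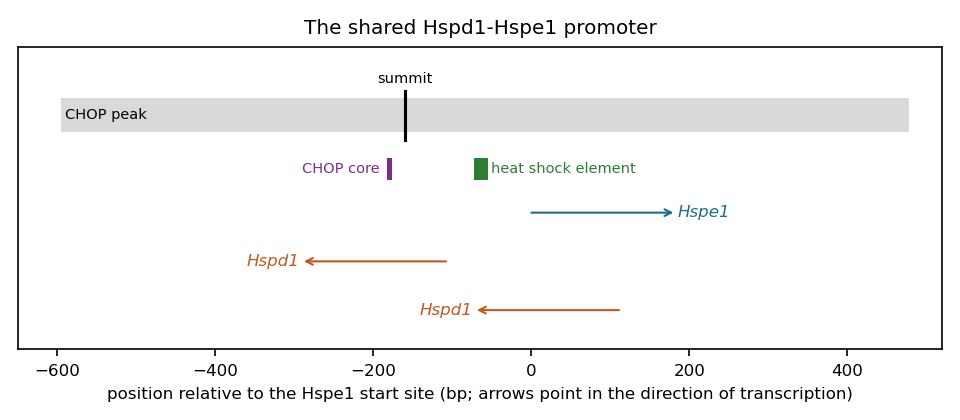
Map of the promoter between Hspd1 and Hspe1, in bp from the start site of Hspe1 at 0, with the CHOP peak (grey, −596 to 477), its summit at −160, the CHOP core (purple), the heat shock element (green) and start sites as arrows in the direction of transcription. The summit lies between the core, at −183 to −178, and the nearer start site of Hspd1, at −108, and the heat shock element is at −73 to −56.

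The other mitochondrial chaperone peaks were near the typical level. Dnaja3, a J protein that works with mortalin, had a 7.56-fold peak (3.99 to 13.3) on 10 reads, 211 bp upstream of a start site. Trap1, the mitochondrial HSP90, had a 5.20-fold peak (2.66 to 9.40) on 9 reads, with its summit 154 bp inside the gene in an intron. Grpel1, the nucleotide exchange factor of mortalin, had no promoter peak. It had 2 distal peaks, of 9.75-fold (5.40 to 16.5) and 14.2-fold (8.75 to 22.1), in its own 3′ UTR, 7730 and 8429 bp from the start site.

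Of the mitochondrial proteases 4 of 7 had a promoter peak, against 27.9% of all protein-coding genes. Among the 6 with CpG-rich promoters by the outermost start site it was 3, no higher than the 51.0% of all CpG-rich genes. Spg7, the other, had a ratio of 0.322 there but 0.937 at the start site of its peak. With the highest ratio over all start sites all 7 are CpG-rich, and 4 of 7 (57.1%) had a peak, against 50.4% of such genes. Lonp1, the matrix protease, had a 10.6-fold peak on 27 reads in a coding exon 172 bp inside the gene (chromosome 17, 56626391 to 56627014). A second Lonp1 peak of 12.5-fold (7.48 to 19.9) on 16 reads lay in an intron, with its summit 1085 bp inside the gene. It was the member summit nearest to the 1 kb limit on the outside, while the promoter summit nearest to it on the inside was that of Bag3 at 732 bp. Yme1l1, an inner membrane protease, had a 9.27-fold peak (5.44 to 14.9) on 15 reads, 339 bp upstream. That summit was 6 bp from the start site of Mastl, a mitotic kinase gene on the other strand.

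Afg3l2 and Spg7 encode the subunits of the m-AAA protease of the inner membrane. Afg3l2 had a 5.87-fold peak (3.32 to 9.73) on 13 reads in an intron 335 bp inside the gene. Spg7 had the lowest fold of all members, 4.21 (2.28 to 7.26) on 11 reads, in a coding exon 85 bp from a start site. Clpx, the unfoldase of the CLPXP protease, had no promoter peak but had 2 distal peaks. The stronger, 11.5-fold (6.77 to 18.5), was in an intron of the gene, 3103 bp upstream of an internal start site, with its summit in a repeat-masked base. The weaker, 4.33-fold (1.89 to 9.13), was in intergenic sequence 5327 bp upstream of the gene. Its partner Clpp, the intermembrane space protease gene Htra2 and Timm17a, a subunit of the inner membrane import machinery, had no peak of either kind. Their nearest summits were 7066, 15027 and 15274 bp away.

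Both heat shock factor genes among the members, Hsf1 and Hsf2, had a promoter peak. Their promoters are CpG-rich, a class in which 51.0% of all protein-coding genes had one. Hsf1, the main regulator of the heat shock response, had a 6.32-fold peak (3.83 to 9.91) on 17 reads in its 5′ UTR, 23 bp inside the gene. The same summit was 191 bp upstream of Bop1, a ribosome biogenesis gene on the other strand. Hsf2, its relative, had a 7.77-fold peak (4.64 to 12.3) on 16 reads, 3 bp downstream of a start site. The intervals overlapped, so the order of the factors is within counting error.

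In the HSP70 system 3 of 7 genes had a promoter peak (42.9%), against 27.9% of all protein-coding genes. Among the 6 with CpG-rich promoters by the outermost start site it was 2 (33.3%), below the 51.0% of all CpG-rich genes. Hspa4l, the other, had a ratio of 0.384 there but 0.881 at the start site of its peak. With the highest ratio over all start sites all 7 are CpG-rich, and 3 of 7 (42.9%) compares with 50.4% of such genes. The peaks of the HSP110-type exchange factors Hspa4 and Hspa4l were the highest of the 3. Hspa4 had a 13.4-fold peak (8.68 to 19.8) on 23 reads in its 5′ UTR, 29 bp inside the gene (chromosome 11, 53299899 to 53300636). Hspa4l had a 14.3-fold peak (9.86 to 20.1) on 31 reads, 54 bp upstream of a start site (chromosome 3, 40744960 to 40745511). Hsph1, the third gene of this type, had no peak, and the nearest summit was 42210 bp away. Hspa8, the constitutive HSP70, had a 4.44-fold peak (1.94 to 9.37) on 5 reads in a coding exon. Its summit was 549 bp downstream of an internal start site that lies 477 bp from the outermost one. With the outermost start site only, Hspa8 had no promoter peak. The 5 reads are the fewest of the members' promoter peaks.

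The stress-induced HSP70 genes Hspa1a and Hspa1b had no peak, with the nearest summit 28847 and 41765 bp away. They are copies of each other with shared stretches. Of 1951 stretches of 50 bases within 1 kb of the start site of Hspa1a, 976 also occurred somewhere in Hspa1b with 1 kb either side. Over the genes with 1 kb either side, 38.0% of the stretches of Hspa1a and 39.3% of those of Hspa1b were shared. Reads from such stretches cannot be placed on a single copy, the sources used here do not say how they were treated, and their part in the missing peaks was not tested. Hspa13, an HSP70 relative known from the microsomal fraction and grouped here with the cytosolic genes, had no summit within 235432 bp.

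The Hspa4l summit lay on a pair of inverted units of the heat shock element, the only such pair within 50 bp of a member's promoter summit. The pair was GAANNTTC or TTCNNGAA on either strand, and 1.76% of all promoter peaks held one. The stretch below is the plus strand of mm10, with the pair in capitals.
Hspa4l at chr3:40745299-40745358: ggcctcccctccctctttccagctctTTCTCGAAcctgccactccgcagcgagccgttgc

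J proteins hand clients to HSP70, and all 5 cytosolic J protein genes among the members had a promoter peak. The 5 genes have CpG-rich promoters, a class in which 51.0% of all protein-coding genes had one. Dnajb4 had the highest, 14.2-fold (9.71 to 20.0) on 30 reads, in a peak of 1472 bp that is the widest of the members (chromosome 3, 152209752 to 152211223). Its summit was 39 bp upstream of a Dnajb4 start site and 300 bp upstream of Fubp1, a single-strand DNA-binding protein gene. Dnajb6 had 7.77-fold (4.20 to 13.4) on 11 reads, 145 bp upstream of the predicted gene Gm5129. Dnaja1 had 7.26-fold (4.76 to 10.7) on 24 reads, and Dnaja2 had 6.96-fold (4.22 to 10.9) on 17 reads. Dnajb1, the classical heat-induced HSP40, had 5.46-fold (2.60 to 10.5) on 7 reads. The 5 summits were within 76 bp of a start site.

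Both BAG genes among the members, whose proteins release nucleotide from HSP70, had a promoter peak. Bag1 had 9.57-fold (6.32 to 14.0) on 25 reads in a coding exon 21 bp from a start site, 226 bp upstream of Chmp5, an ESCRT-III gene. Bag3, a partner of small heat shock proteins in selective autophagy, had 7.31-fold (4.29 to 11.8) on 15 reads in an intron 732 bp inside the gene. The TRiC chaperonin folds actin and tubulin, and the 4 of its genes that are members had one too. These BAG and TRiC genes all have CpG-rich promoters, a class in which 51.0% of all protein-coding genes had one. Cct5 had 7.81-fold (4.11 to 13.8) on 10 reads, Cct2 had 6.14-fold (3.23 to 10.8) on 10 reads, Tcp1 had 5.42-fold (2.68 to 10.1) on 8 reads and Cct3 had 5.25-fold (2.40 to 10.5) on 6 reads. These are low read numbers. With −log10 q of at least 5 only 2 of the 4 remained, against 21.0% of all protein-coding genes. The summit of Cct5 was nearer to Fam173b (77 bp), that of Cct3 nearer to Tsacc (31 bp), and that of Tcp1 was also within 359 bp of Mrpl18, a mitochondrial ribosomal protein gene.

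In the HSP90 system 1 of 4 genes had a promoter peak, close to the 27.9% of all protein-coding genes, and of the 2 small heat shock protein genes 0 had one. Hsp90aa1, the stress-induced HSP90, had a peak of 5.03-fold (2.96 to 8.10) on 15 reads, 14 bp upstream of an internal start site 6777 bp from the outermost one. Hsp90ab1, the constitutive form, had its nearest summit 8418 bp away. The co-chaperone genes Stip1 and Ahsa1 had none within 50 kb, with the nearest at 52273 and 79568 bp. Hspb1, which encodes the small heat shock protein HSP27, had no peak of its own, and the nearest summit was 40678 bp away. Hspb8, a partner of BAG3, had no promoter peak but 3 distal ones, of 15.0-fold (9.33 to 23.0), 11.0-fold (6.36 to 18.0) and 7.26-fold (3.71 to 13.1), at 32917, 30119 and 14694 bp downstream of its start site in intergenic sequence.

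Member summits were close to start sites. The median distance was 80.5 bp and 15 of 26 (57.7%) were within 100 bp, against 111 bp and 47.2% over all genes with a promoter peak. In the cytosolic group 13 of 17 summits (76.5%) were within 100 bp, and in the mitochondrial group 2 of 9 (22.2%). The 9 count the shared summit of Hspd1 and Hspe1 for both genes, at 52 and 160 bp. With so few summits these shares are a description. The summit was at or inside the start site at 14 members (53.8%) and upstream at 12, against 59.5% at or inside it over all genes with a promoter peak. A promoter peak shared with another gene was found at 10 of 26 members (38.5%), against 19.1% of all genes with one. Counting a summit only for the gene with the nearest start site, Cct3, Cct5, Hspe1 and Yme1l1 lose theirs and 22 members keep one, against 25.5% of genes.

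**Figure D4:**
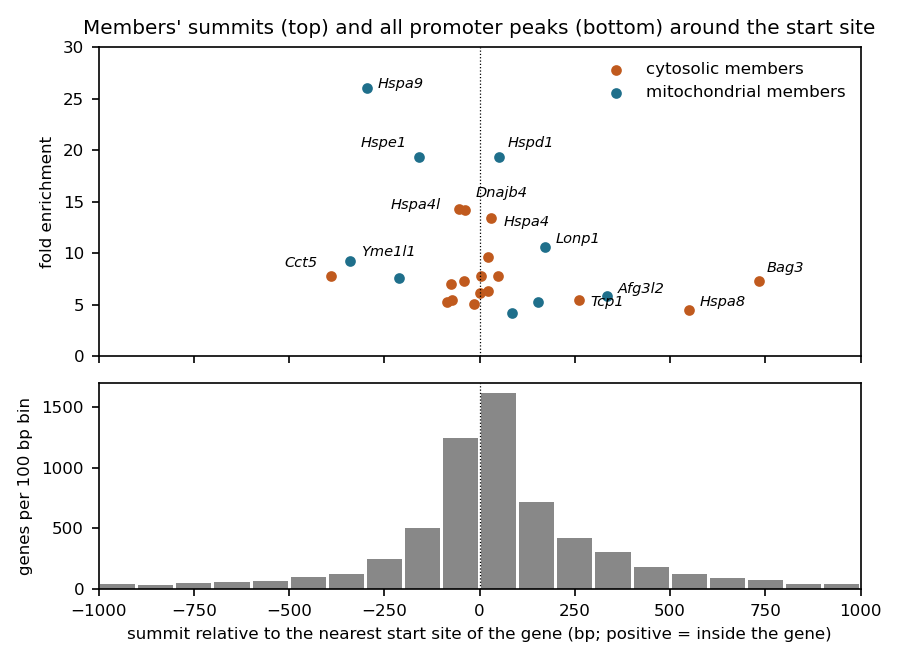
Top, fold enrichment of each member's promoter peak against the distance of its summit from the nearest start site of the gene (bp, positive inside the gene). Bottom, the same distance for all 6100 genes with a promoter peak, in bins of 100 bp. Cytosolic summits crowd near 0, Hspa9 and Hspe1 lie upstream, and Bag3 at 732 bp is the furthest inside.

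Distal peaks were found at 9 of the 40 genes (22.5%), against 18.0% of all protein-coding genes. They were at 3 of 26 cytosolic genes (11.5%) and 6 of 14 mitochondrial ones (42.9%). The 13 distal peaks were those of Hspb8, Grpel1, Clpx, Lonp1 and Hspa9 above and single peaks of Hspd1, Dnaja2, Hsp90aa1 and Afg3l2 with folds from 4.38 to 5.93. Counting either kind, 29 genes (72.5%) had a peak, against 38.2% of all genes, and 11 had none.

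CHOP binds DNA mainly as a partner of other bZIP proteins, and the C/EBP-ATF composite element is the typical site of such pairs. This element, searched as TGATGNAA on either strand, was within 50 bp of the summit at 0 of the members' 25 distinct promoter peaks, against 1.89% of all 6306 promoter peaks. At the members' distal peaks it was found at 3 of 13, against 9.81% of all peaks beyond 1 kb of a start site. With so few peaks these shares are a description. The CHOP core TGCAAT, which can overlap the composite, was at 1 of 25 promoter peaks (3.47% of all), that of Hspd1 and Hspe1. The C/EBP palindrome TTGCGCAA (0.159% of all promoter peaks), the CRE palindrome TGACGTCA (0.856%), AP-1 (TGANTCA, 1.09%), the E-box CACGTG (5.41%) and the NRF1 element GCGCATGCG (0.571%) were each at 0 of 25. At such shares 25 peaks would hold few or no matches.

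The distal sites that carried a composite element or a core belong to Hspb8, Lonp1, Grpel1 and Clpx. They are printed to show how the element sits at these summits. Each reads 5′ to 3′ with the matches in capitals. The stretches of Hspb8, Lonp1 and Clpx are the minus strand of mm10 and that of Grpel1, in its 3′ UTR, the plus strand. Grpel1 has a pair of matches 3 bp apart in the weaker of its peaks.
Hspb8 at chr5:116389932-116389991: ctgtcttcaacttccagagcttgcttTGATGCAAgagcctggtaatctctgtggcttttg
Lonp1 at chr17:56625779-56625838: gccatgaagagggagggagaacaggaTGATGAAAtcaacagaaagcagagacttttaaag
Grpel1 at chr5:36472677-36472705: aaagcTGATGAAAtggTGATGTAAaggaa
Clpx at chr9:65288906-65288963: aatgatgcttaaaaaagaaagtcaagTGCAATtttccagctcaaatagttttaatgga
The element was 14 bp from the summit at Hspb8, 6 bp at Lonp1 and 37 bp at Grpel1, and the core was 1 bp away at Clpx. The Clpx site is at its weaker distal peak, which rests on 5 reads.

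The most frequent match at the members' promoter summits was of a general promoter element, the GC box. A GC box (GGGCGG) was at 12 of 25 peaks (48.0%), against 45.4% of all promoter peaks. The CRE core TGACG, which is part of the CRE palindrome too, was at 8 of 25 (32.0%), against 13.3%, those of Hspa9, Hspa4l, Dnajb4, Dnajb1, Dnaja2, Dnaja3, Cct2 and Afg3l2. Within 25 bp of the summit it was at 3 of 25, against 7.25%, so the distance to the background depended on the window. CCAAT was at 3 of 25 (12.0%, against 7.53%) and the ETS core CCGGAAG at 2 of 25 (8.00%, against 4.12%).

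**Figure D5:**
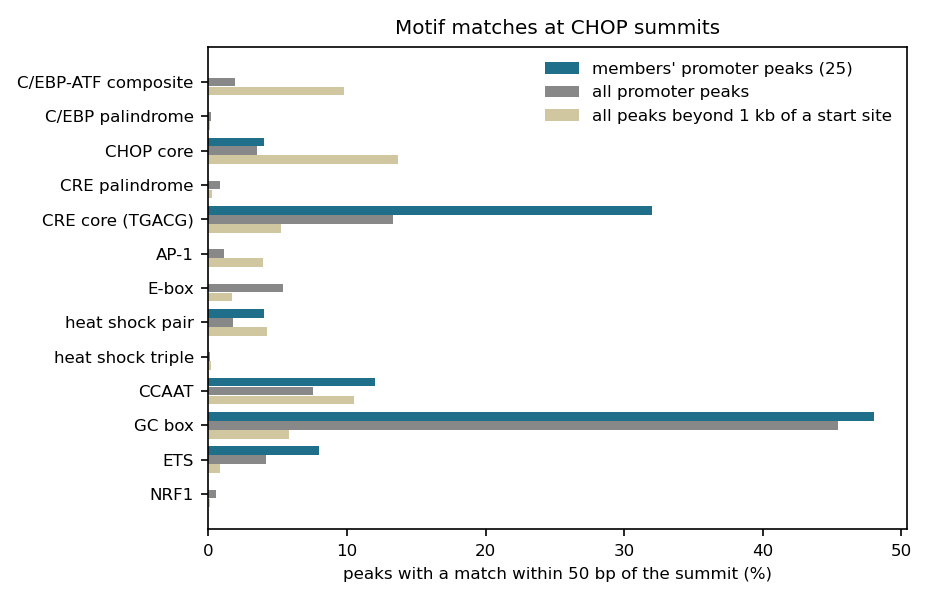
Percentage of peaks with a match within 50 bp of the summit, for the members' 25 promoter peaks (blue), all promoter peaks (grey) and all peaks beyond 1 kb of a start site (sand); the heat shock triple is an array of 3 alternating GAA units. The CRE core stands at 32.0% of members' peaks against 13.3%, and the composite element at 0 against 1.89%.

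Heat shock elements were common in the members' promoters and mostly lay away from the CHOP summits. A perfect array of 3 alternating GAA units, with 2 bases between units, occurred within 500 bp of the outermost start site of 8 of 40 members (20.0%), against 1.71% of all genes. Since many members are classical heat shock genes, this describes the list. Of these 8 genes, 6 had a CHOP promoter peak, against 65.0% of all 40 members and 27.9% of all protein-coding genes. Hsph1 and Stip1 had none, and Hspd1 and Hspe1 share 1 array and 1 peak. None of the 25 promoter peaks held such an array within 50 bp of its summit, against 0.0951% of all 6306 promoter peaks. At that share 25 peaks would hold few or no matches. The array was 114 bp from the summit at Tcp1, 223 bp at Dnajb6, 341 bp at Dnaja1, and 783 and 941 bp at the arrays of Hspa8, beside the 95 bp at Hspd1 and Hspe1. The stretches below, on the strand of the gene with the array in capitals, show the elements whose distance to the CHOP summit was measured, then those of the 2 genes with no peak.
Tcp1 at chr17:12916806-12916830: agggaaGAATGTTCGAGAAtgcaca
Dnajb6 at chr5:29735846-29735870: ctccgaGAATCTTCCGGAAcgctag
Dnaja1 at chr4:40722528-40722552: cgggcgGAACTTTCCAGAAcgctcg
Hspa8, nearer array, at chr9:40801215-40801239: gcacccTTCTGGAAGGTTCtaagac
Hspa8, further array, at chr9:40801057-40801081: gagcgtGAAAGTTCCAGAAcgccgc
Hsph1 at chr5:149636282-149636306: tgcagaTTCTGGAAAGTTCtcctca
Stip1 at chr19:7040273-7040297: gttgtgGAAATTTCCAGAAagaaca

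Further genes of the same pathways had promoter peaks at shares between the background and the members or close to the members. Of 34 other cytosolic chaperone and co-chaperone genes 15 had one (44.1%, 95% Wilson interval 28.9 to 60.5%), against 27.9% of all protein-coding genes. Among the CpG-rich ones it was 12 of 25 (48.0%), no higher than the 51.0% of all CpG-rich genes. The highest was Pfdn1, a prefoldin subunit, at 39.7-fold (29.9 to 51.9) on 52 reads, with its summit 689 bp downstream of a start site. That peak was narrow (chromosome 18, 36453681 to 36453862), against a median width of 367 bp over all genes with a promoter peak. Next were Bag6, a chaperone of tail-anchored proteins, at 15.5-fold (11.0 to 21.3) and Pfdn2 at 11.4-fold (7.03 to 17.7). The HSP90 co-chaperone genes Ptges3 and Fkbp4 were each at 9.38-fold (6.03 to 14.0). Of 30 other mitochondrial folding, protease and import genes 18 had one (60.0%, 42.3 to 75.4%), and of the 24 CpG-rich ones 17 (70.8%). These were led by Lrpprc at 22.6-fold (15.9 to 31.2), which is counted in this set although it is a regulator of mitochondrial RNA. Next were the import receptor gene Tomm70a at 12.5-fold (8.64 to 17.4) and Dnajc19, a J protein of the import motor, at 12.3-fold (7.81 to 18.5). The rhomboid protease gene Parl followed at 11.0-fold (6.76 to 17.1). The median fold was 7.80 in the cytosolic and 6.97 in the mitochondrial set.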

How the data were processed

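The data are the authors' CHOP peak list from 1 pooled liver library, and the input library was not analysed here. Per the labels' protocols, Bowtie placed single-end reads on mm10 allowing up to 2 mismatches, duplicates beyond 2 reads per position and strand were removed, and alignments were filtered with SAMtools 1.9 and Sambamba. The Bowtie version is not stated in those sources. MACS2 2.1.2 then called the peaks with defaults, per the labels' protocols. The authors deposited for each peak a fold enrichment (a ratio), −log10 p and −log10 q values, the summit offset, and a score that equals 10 times −log10 q within 1 in every peak and was not used.

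Gene models were GENCODE M21 on GRCm38.p6, the assembly named mm10. All start sites of protein-coding transcripts were used. A peak counts for every gene within 1 kb, and for genes with several the highest fold is given. Whole-number reads at the summit were solved from fold and −log10 p as MACS2 computes them, leaving at most 3.13e-05 of −log10 p unexplained. Reads carry no molecular identifiers, so Poisson intervals cover counting error only. Assignment, solver and motif search were tested on simulated data. No test of a difference was run. All 40 members are named, with genes that share their promoter peaks and up to 4 further pathway genes of highest fold per list, and a gene tied with the last. Members and lists were chosen with earlier results of these data known. One further listed gene, Cct6a, is not protein-coding in this annotation and was left out. Alternatives covered promoter distance, start sites, peak thresholds, repeat-masked summits, assignment, distal limits, motif windows and the measure of composition, the last chosen after seeing the data. Python 3.11.15, numpy 2.4.6, pandas 2.3.3, scipy 1.17.1 and matplotlib 3.10.9 were used. Sequences are from the GRCm38.p6 reference of RefSeq.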

Additional observations from a re-analysis of the deposited data

How the results depend on the processing

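The 26 members with a promoter peak became between 20 and 26 under every alternative except the cut at the median fold of the list. Under those alternatives the share of all genes was between 21.0% (−log10 q of at least 5, 20 members) and 30.3% (promoter distance of 3 kb, 26 members). The cut at the median fold left 16 members, against 14.7% of all genes. That cut also left 10 cytosolic genes, 2 mitochondrial proteases, 1 heat shock factor, 1 TRiC gene and 0 HSP90 genes, and 11 further mitochondrial genes. With −log10 q of at least 5, 2 TRiC genes kept a peak (21.0% of all genes), as with the nearest start site only (25.5%). With summits within 500 bp, 1 BAG gene did (25.8% of all genes), and with the outermost start site only, 0 HSP90 genes did (25.5%). Of 189 recomputed values 158 stayed within 1.5 times the reported count or within the counting interval of the reported median fold, and the 31 others are all given here. Ordering by −log10 q kept the same 6 genes first.

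Motif counts moved most, and so did the shares over all promoter peaks, given in brackets. Within 100 bp of the summit, the CHOP core was at 2 of 25 peaks (5.66%), CRE palindrome 1 (1.73%), E-box 1 (9.18%), heat shock pair 2 (3.85%), heat shock array 1 (0.174%), CCAAT 5 (14.6%) and ETS 4 (8.80%). Within 25 bp, the CRE core was at 3 (7.25%), CCAAT at 1 (4.03%) and ETS at 1 (2.09%). In the whole peak, the composite was at 2 (4.03%), the CHOP core at 3 (8.71%), CRE palindrome at 1 (2.90%), CRE core at 13 (40.1%), E-box at 5 (15.4%), heat shock pair at 6 (9.10%), heat shock array at 1 (0.270%), CCAAT at 10 (26.6%), GC box at 21 (78.2%) and ETS at 8 (15.7%), since longer stretches hold more matches. No paired analysis was possible because there is 1 library per group. Peaks of few reads limit precision: 8 of the 26 promoter peaks rest on 10 or fewer.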

Other observations

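Matches elsewhere in the members' promoter peaks add detail to the summit windows. The shared peak of Hspd1 and Hspe1 also holds a C/EBP-ATF composite, 342 bp from its summit, and that of Dnaja2 holds one 265 bp from its summit. The CHOP core occurs 92 bp from the summit of Hspa8 and 164 bp from that of Trap1, and the CRE palindrome 87 bp from that of Yme1l1. In the whole of the peak, 4.03% of all promoter peaks hold the composite, 8.71% the core and 2.90% the CRE palindrome.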
